A study of Homo sapiens with 2 samples.

Results

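The genes of the DNA replication machinery were examined in anti-Flag CUT & Tag profiles of TFK-1 cells, a line of human extrahepatic cholangiocarcinoma (ECCA). A list of 50 genes was used out of 20037 nuclear protein-coding genes, chosen by the known role of each protein at the replication fork, with earlier results of these data known: the origin recognition complex (ORC), licensing factors, the MCM helicase, CDC45 and GINS, the sliding clamp and its loader RFC, the 3 replicative polymerases, RPA, Okazaki fragment enzymes, fork checkpoint proteins and the histone chaperone NASP. There were 2 libraries, 1 per condition. LV-HOXA5 cells carried a lentivirus for Flag-tagged HOXA5, a homeobox transcription factor, and LV-HOXA5-NC cells carried the matching control lentivirus, so that the Flag antibody had no tagged HOXA5 to bind there. Both were stable derivatives of the same cell line, selected with puromycin, and the peaks of LV-HOXA5 record overexpressed rather than native HOXA5.

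Replication starts when ORC, CDC6 and CDT1 load a double ring of MCM2 to MCM7 onto DNA at origins. CDC45 and GINS then join the ring to form the active helicase, polymerase epsilon extends the leading strand and polymerase delta the lagging strand, and both are tethered by the PCNA clamp, which RFC opens and closes. Many genes of this machinery are transcribed at the start of S phase under E2F factors, which makes their promoters a common place to ask whether a regulator of proliferation binds.

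The LV-HOXA5 library held 15778555 fragments after removal of duplicates and 8043 peaks, and the LV-HOXA5-NC library held 1948734 fragments, 12.4% as many, and 635 peaks. The deposited LV-HOXA5 list was used as it stands, and its length is not the number of peaks the study gives for these cells. At the HOXA5 gene itself LV-HOXA5 had a peak with a pileup of 44 and LV-HOXA5-NC had none, but fragments of the lentiviral copy could map there, so this peak does not check the native locus. Pileup is the number of fragments that cover the summit of a peak, and fold enrichment is that pileup over the background the peak caller expected at the same place. With 1 library per condition there was no replicate check and no test between conditions. Intervals given here are exact 95% intervals that cover counting error only, and neighbouring genes are not independent of each other.

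In LV-HOXA5 cells, 12 of the 50 replication genes had a peak within 1 kb of either end of the gene, a share of 24.0% (13.1 to 38.2%, exact binomial interval). Among the 19987 other protein-coding genes 2587 had one, 12.9% (12.5 to 13.4%). The 12 genes were ORC4, ORC6, CDC6, MCM3, MCM8, MCM10, CDC45, PCNA, POLD1, POLE3, LIG1 and NASP. When a peak inside the gene or up to 3 kb outside it was counted, ORC1 and RPA3 were added and the share was 14 of 50, 28.0% (16.2 to 42.5%), against 20.7% of the other genes, a background that lies inside the interval of the members. For peaks at gene ends, the lower bound of the members, 13.1%, was thus just above the 12.9% of the other genes. With a limit of 2 kb the interval of the members held the share of the other genes. It also held that share when only peaks at or above the median fold of the list were counted, which left 5 of 50 members (10.0%, 3.33 to 21.8%) and 6.94% of the other genes. The list was chosen with earlier results known and was not tested as a set, so these intervals only describe it. In LV-HOXA5-NC cells no replication gene had a peak at either distance, 0 of 50 genes, which allows a share of up to 6.0% by the rule of 3 counts (the exact upper bound is 7.11%). The background of the control was itself low, 0.0700% of the other genes within 1 kb of an end and 0.650% within 3 kb or inside, and both lie below what 50 genes can resolve.

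The ratio of the shares was largest at the smallest distances. A peak covered an end of 9 of 50 replication genes (18.0%, 8.58 to 31.4%) and of 6.62% of the other genes. Within 100 bp the shares were 20.0% and 9.34%, within 10000 bp 34.0% and 20.6%, and within 100000 bp 64.0% and 54.8%. The lower bound for the members was only just above the share of the other genes at 1000 bp, 13.1% against 12.9%. It was below that share at 500 bp (11.5% against 11.9%), 2000 bp (13.1% against 14.1%), 3000 bp, 50000 bp and 100000 bp, and above it at the other limits tried.

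**Figure D1:**
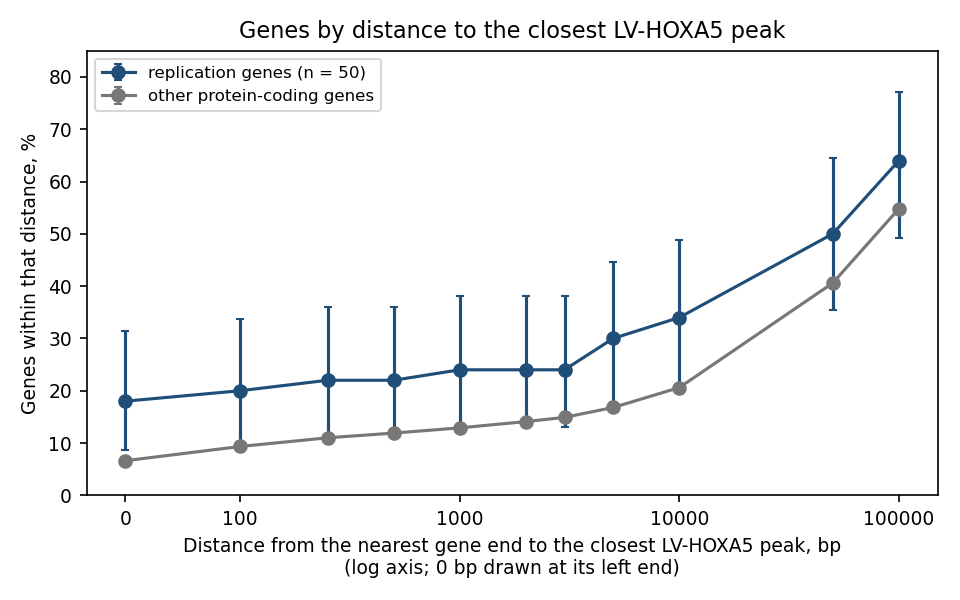
Share of genes (percent, vertical axis) whose closest LV-HOXA5 peak lies at most a given number of base pairs from either end (horizontal axis, stepped limits from 0 to 100000 bp), for the 50 replication genes and the 19987 other protein-coding genes, with exact 95% binomial intervals as bars. The members lie above the other genes at every limit drawn, from 18.0% against 6.62% at 0 bp to 64.0% against 54.8% at 100000 bp.

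Replication genes lay close to other genes more often than most, which bears on this share. Another protein-coding gene had an end, either its start or its far end, within 1 kb of an end of 23 of the 50 members (46.0%) and of 28.5% of the other genes. Among the members with such a neighbour 8 of 23 had a peak (34.8%, 16.4 to 57.3%), beside 20.3% of the other genes with a neighbour. Among those without one, 4 of 27 members had a peak (14.8%, 4.19 to 33.7%), beside 10.0% of the other genes. Within each class the share of the other genes lay inside the interval of the members, so neither class alone showed a difference beyond counting error; the members' share was the higher one in both, and splitting 50 genes into 23 and 27 widens the intervals. The part of neighbouring genes in the overall difference was not tested. At 8 of the 12 genes the peak also lay within 1 kb of an end of a neighbouring protein-coding gene, and the peak list cannot tell which of the 2 genes it belongs to. The 4 genes with no such neighbour were CDC6, MCM3, MCM10 and NASP.

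The promoters on which these counts turn are shown next, as the 250 bases before the first RefSeq start of transcription (GRCh38.p14), written 5′ to 3′ on the strand of the gene. The first 6 carried a peak. MCM6, which the study also followed as a protein, is shown as a member without one and was not chosen as typical of them. Capitals mark, on either strand, the string TAAT, which is the core of homeodomain sites, the CCAAT box and 4 strings written here as E2F strings, namely TTTCCCGC, TTTGGCGC, TTTCGCGC and TTTGCCGC. On the opposite strand these read as ATTA, ATTGG and the reversed E2F strings such as GCGGGAAA. Positions are negative and count back from the start, the base just before it being the first, and each gives the leftmost letter of a string.
PCNA, minus strand, chr20:5126623-5126872: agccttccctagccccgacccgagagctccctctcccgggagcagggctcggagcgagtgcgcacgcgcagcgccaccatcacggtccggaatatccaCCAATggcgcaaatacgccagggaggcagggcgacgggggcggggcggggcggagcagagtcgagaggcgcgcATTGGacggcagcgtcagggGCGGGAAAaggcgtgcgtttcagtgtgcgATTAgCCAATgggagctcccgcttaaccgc
ORC6, plus strand, chr16:46689409-46689658: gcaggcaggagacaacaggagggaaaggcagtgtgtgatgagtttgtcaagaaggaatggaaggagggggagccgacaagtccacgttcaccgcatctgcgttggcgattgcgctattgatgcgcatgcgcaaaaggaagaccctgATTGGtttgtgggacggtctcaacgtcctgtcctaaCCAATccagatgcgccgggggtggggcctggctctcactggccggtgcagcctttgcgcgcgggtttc
MCM3, minus strand, chr6:52284743-52284992: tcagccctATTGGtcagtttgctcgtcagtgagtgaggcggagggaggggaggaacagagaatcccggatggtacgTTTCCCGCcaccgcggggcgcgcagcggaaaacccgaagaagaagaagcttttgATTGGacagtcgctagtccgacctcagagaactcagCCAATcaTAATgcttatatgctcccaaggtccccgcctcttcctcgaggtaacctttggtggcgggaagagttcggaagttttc
LIG1, minus strand, chr19:48170345-48170594: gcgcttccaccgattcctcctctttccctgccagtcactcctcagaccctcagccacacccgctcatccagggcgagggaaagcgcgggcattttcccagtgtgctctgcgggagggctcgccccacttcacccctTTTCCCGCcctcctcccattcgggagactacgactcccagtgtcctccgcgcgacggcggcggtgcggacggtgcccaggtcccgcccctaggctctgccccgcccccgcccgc
CDC6, plus strand, chr17:40287629-40287878: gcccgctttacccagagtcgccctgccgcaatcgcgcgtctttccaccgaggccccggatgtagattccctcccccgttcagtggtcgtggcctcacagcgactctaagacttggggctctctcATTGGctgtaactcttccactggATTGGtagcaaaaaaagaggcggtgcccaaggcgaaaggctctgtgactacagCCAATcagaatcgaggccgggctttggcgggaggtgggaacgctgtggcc
CDC45, plus strand, chr22:19479216-19479465: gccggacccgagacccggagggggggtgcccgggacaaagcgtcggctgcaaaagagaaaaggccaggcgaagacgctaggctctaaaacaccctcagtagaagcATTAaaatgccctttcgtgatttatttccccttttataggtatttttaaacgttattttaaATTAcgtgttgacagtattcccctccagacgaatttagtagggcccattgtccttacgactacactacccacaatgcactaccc
MCM6, minus strand, chr2:135876444-135876693: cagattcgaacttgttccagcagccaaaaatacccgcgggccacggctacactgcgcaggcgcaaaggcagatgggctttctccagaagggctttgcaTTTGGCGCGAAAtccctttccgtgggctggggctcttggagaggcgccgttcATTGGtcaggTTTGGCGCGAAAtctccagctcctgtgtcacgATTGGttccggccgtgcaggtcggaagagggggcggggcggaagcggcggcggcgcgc

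All 250 bases lay under the peak at PCNA, ORC6, MCM3 and LIG1, 246 of them at CDC6 and 33 at CDC45, whose peak lay mostly past the start. The PCNA stretch held 3 CCAAT boxes, 1 E2F string at -59 and 1 TAAT at -30, 1 base before its last CCAAT box. In MCM3 a TAAT at -77 stood 2 bases after a CCAAT box, and an E2F string lay at -174; a further E2F string began at -4 and ran past the start. ORC6 and CDC6 held CCAAT boxes and no TAAT, LIG1 held only an E2F string, and CDC45 held only 2 TAAT strings, at -145 and -84, both outside its peak. Past the stretch shown for CDC6, an E2F string began at base 8, counting the start as the first, and lay under the peak. The MCM6 stretch, which no peak touched, held the largest number of E2F strings of the 7, with 4 matches that form 2 overlapping pairs. It is not typical of the members without a peak at a start, of which 16 of 31 held any E2F string in a window of 300 bases.

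PCNA, the sliding clamp, had the highest pileup of the 50 genes and was the only one with more than 1 peak. The peak at its first start, chr20:5126583-5126989, had 42 fragments at the summit (exact Poisson interval 30.3 to 56.8) and was 7.38-fold enriched, a fold higher than at 91.1% of all LV-HOXA5 peaks. Its summit lay 93 bp before the start. An end of CDS2 lay 19 bp from the peak, and the 250 bases printed above lay under the peak. A second peak, chr20:5119526-5120131, covered an internal start of PCNA with its summit 24 bp before that start, a pileup of 32 (21.9 to 45.2) and a fold of 6.47. It also covered an end of the noncoding PCNA-AS1. The third, chr20:5113030-5113389, lay 1564 bp beyond the other end of PCNA with a pileup of 20 and a fold of 4.74, and covered an end of TMEM230. The pair of peaks at annotated starts of PCNA thus stood in the upper part of the list, and the distal one near its median fold of 4.82.

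ORC marks origins for loading, and 3 of its 6 genes had a peak within 3 kb or inside (50.0%, 11.8 to 88.2%), an interval that holds the 20.7% of the other genes. At ORC6, chr16:46689141-46689852, the peak had a pileup of 36 (25.2 to 49.8) and a fold of 7.44, the highest fold among the members. It was also the longest of the 12 peaks, 712 bp, and covered the ends of ORC6 and of VPS35, a gene of endosomal sorting. At ORC4, chr2:148020467-148020733, the pileup was 13 (6.92 to 22.2) and the fold 5.60, at a peak 818 bp inside the gene and 4 bp from the second of its annotated starts, with MBD5 194 bp away. ORC1 had its peak, chr1:52404510-52404910, 4593 bp inside the longest gene model but 87 bp upstream of the start in the promoter table, with a pileup of 10 (4.8 to 18.4) and a fold of 4.11; it covered an end of PRPF38A. ORC2, ORC3 and ORC5 had no peak within 3 kb or inside. Within ORC the pileup intervals of ORC6 and ORC4 did not overlap, and those of ORC4 and ORC1 did.

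Of the licensing factors, CDC6, the ATPase that helps ORC load the helicase, had a peak at chr17:40287633-40287928 with a pileup of 18 (10.7 to 28.4) and a fold of 4.00. Its summit lay 239 bp before the start and no other gene had an end within 1 kb, so this is one of the few peaks with a single candidate gene. CDT1, its partner in loading, and GMNN, which inhibits CDT1, had none.

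Among MCM2 to MCM7, the 6 subunits of the replicative helicase ring, only MCM3 had a peak in the LV-HOXA5 list, at chr6:52284728-52285020. It was one of the lower member peaks, with a pileup of 11 (5.49 to 19.7), a fold of 4.68 and a summit 247 bp before the start. MCM6 was 97733 bp from the closest peak, MCM7 47254 bp and MCM4 607477 bp, and MCM2 and MCM5 also had none within 3 kb or inside. A share of 1 in 6 (16.7%, 0.421 to 64.1%) is near the 12.9% of the other protein-coding genes.

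MCM8, MCM10 and CDC45 each carried a peak, 3 of 3 genes (29.2 to 100%), an interval that overlaps that of the ring. Its lower bound lay above the 12.9% of the other protein-coding genes. This group, 1 of 14, was a remainder rather than a complex: the listed MCM genes outside the ring, with CDC45. CDC45 was counted apart from GINS, its partner in the helicase, so the share of this group does not describe a complex. MCM9, a further MCM gene that was placed in the second list described below, was 1371966 bp from the closest peak. MCM8, a helicase subunit with roles in repair by recombination, had a pileup of 14 (7.65 to 23.5) and a fold of 3.94 at chr20:5950616-5950906. MCM10, which helps activate the helicase, had a pileup of 13 (6.92 to 22.2) and a fold of 4.72 at chr10:13161336-13161784. CDC45, the helicase cofactor, had a pileup of 17 (9.9 to 27.2) and a fold of 5.43 at chr22:19479433-19479861. Their summits lay past the start, at 100 bp, 202 bp and 238 bp, and the 3 pileup intervals overlap. An end of TRMT6 lay 83 bp from the MCM8 peak and an end of UFD1 240 bp from that of CDC45, while MCM10 had no such neighbour. None of the 4 GINS genes, whose products complete the helicase with CDC45, had a peak within 3 kb or inside. The exact interval of 0 to 60.2% holds the 20.7% of the other genes, so 4 genes cannot show a lack of peaks. Their distance to the closest peak ran from 20288 bp at GINS1 to 680886 bp at GINS2.

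Of the 12 genes of the 3 replicative polymerases, 2 had a peak at most 1 kb from an end (16.7%, 2.09 to 48.4%), a share near the background of 12.9%. POLD1, the catalytic subunit of polymerase delta, had a pileup of 19 (11.4 to 29.7) at chr19:50384059-50384325 but a fold of only 3.72, the lowest of the members, with NR1H2 671 bp away. POLE3, a small histone-fold subunit of polymerase epsilon, had a pileup of 10 (4.8 to 18.4) and a fold of 4.23 at chr9:113410416-113410692, with C9orf43 55 bp away. It was the only one of the 12 whose q-value was above 0.001, with a -log10 q of 2.79. The other 3 genes of each of these polymerases had none within 3 kb or inside, and neither did the 4 genes of polymerase alpha-primase, which makes the primers. For polymerase alpha-primase the exact interval was 0 to 60.2%, which holds the 20.7% of the other genes. POLD3, POLE2 and PRIM1 came closest, with a peak 3775 bp, 5025 bp and 5977 bp from an end. The 5 RFC genes of the clamp loader had none either, with an exact interval of 0 to 52.2% that holds the background.

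On the lagging strand, LIG1, the ligase that joins Okazaki fragments, had a peak at chr19:48170141-48170667 with a pileup of 21 (13.0 to 32.1) and a fold of 5.24, 13 bp from an end of ZSWIM9. FEN1, the nuclease that trims the flaps before ligation, was 430583 bp from the closest peak. RPA, which coats single-stranded DNA, had a peak at 1 of its 3 genes: the peak at RPA3, chr7:7640426-7640915, lay 3908 bp inside the gene with a pileup of 25 (16.2 to 36.9) and a fold of 7.28, and covered an end of UMAD1. RPA1 and RPA2 had no peak within 3 kb or inside, and neither did TOPBP1, TIMELESS, TIPIN and CLSPN, the 4 genes of the fork checkpoint. The exact intervals, 0.840 to 90.6% for RPA and 0 to 60.2% for the fork checkpoint, both hold the 20.7% of the other genes.

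NASP, the chaperone that holds histones H3 and H4 for newly made DNA, was another gene the study measured as a protein. Its peak, chr1:45583558-45583906, had a pileup of 15 (8.4 to 24.7) and a fold of 4.61, and lay wholly upstream, 135 bp before the gene with its summit 469 bp before the start. This was the farthest summit among the 12. Of the 3 genes followed as proteins, PCNA and NASP thus had a peak at the start and MCM6 had none, and the pileup intervals of PCNA and NASP did not overlap.

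**Figure D2:**
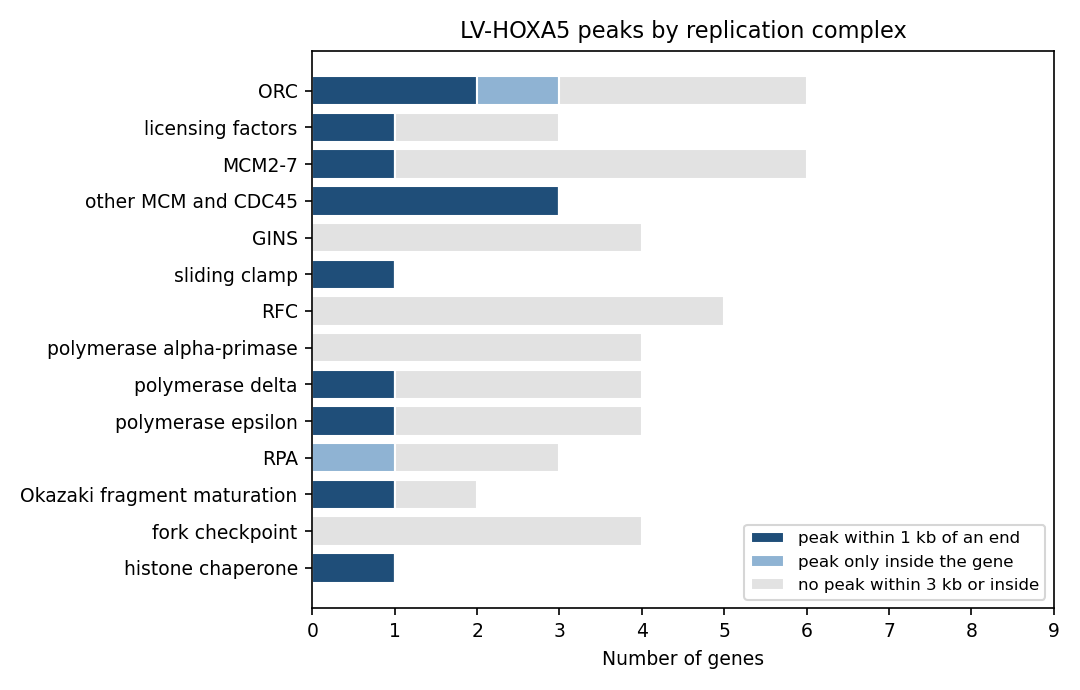
Number of replication genes (horizontal axis) in each of 14 groups (vertical axis), split into those whose LV-HOXA5 peak lay at most 1 kb from an end, those with a peak only inside the gene, and those with neither. There were 9 groups with a gene in the first class; GINS, RFC, polymerase alpha-primase, RPA and the fork checkpoint had none there.

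Compared with peaks at other genes, those at replication genes were of ordinary height. The closest peak of the 12 members had a median pileup of 16 (range 10 to 42) and a median fold of 4.70 (3.72 to 7.44). The 2587 other genes with a peak within 1 kb of an end had medians of 17 (8 to 188) and 4.90 (2.51 to 19.9). In 5 of the 12, ORC4, ORC6, CDC45, PCNA and LIG1, the fold was above the median of all LV-HOXA5 peaks. The member peaks had a median length of 322 bp against 412 bp at the other genes. Pileup and fold at the members thus lay within the range of the other genes and had medians near theirs, with ORC6 and the first PCNA peak above 91.3% and 91.1% of all LV-HOXA5 peaks by fold.

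The absence of control peaks has to be read against depth. None of the 16 member peaks overlapped a peak of LV-HOXA5-NC, and the closest control peak to any member was 148489 bp away, at POLE. Scaled to the smaller number of control fragments, the 16 pileups would be 1.24 to 5.19, and the lowest pileup listed in the control was 4. Only the peak at the first PCNA start, at 5.19, and the ORC6 peak, at 4.45, reached that level. The lower bounds of their pileup intervals, scaled in the same way, were 3.74 and 3.11, below that level. At none of the 16 peaks can absent control binding be told apart from too few control fragments.

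**Figure D3:**
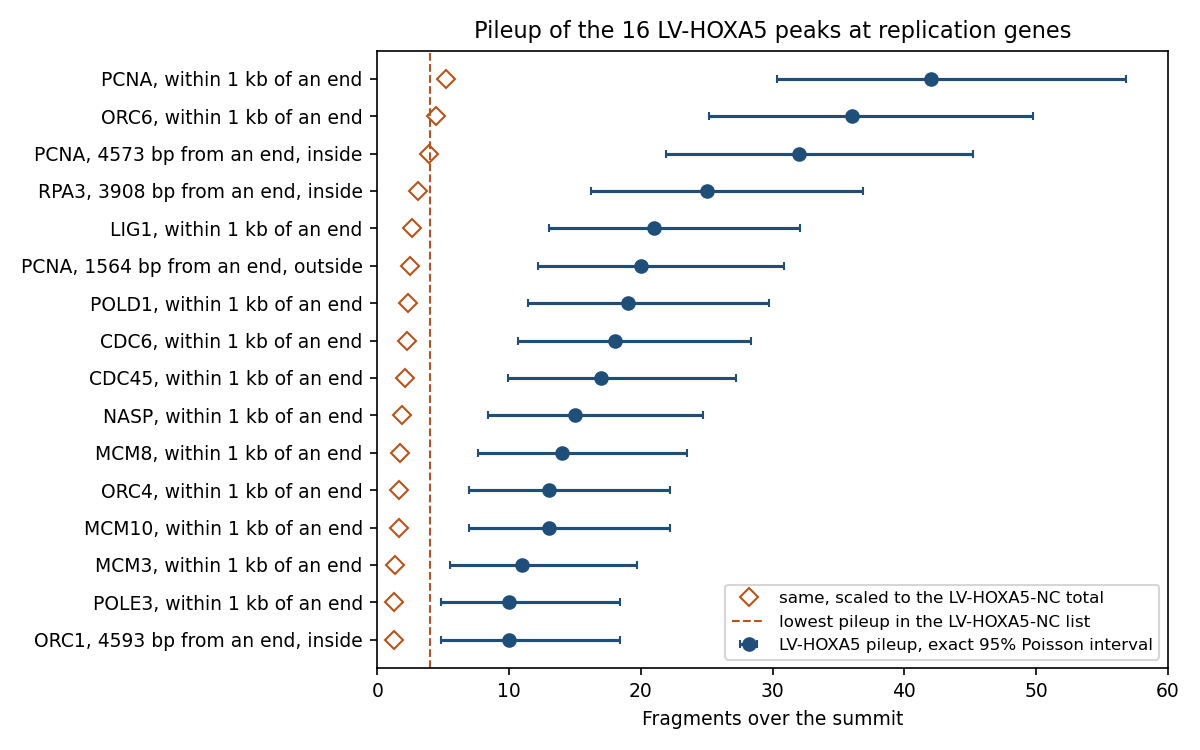
Pileup, in fragments over the summit (horizontal axis), of the 16 LV-HOXA5 peaks at replication genes (vertical axis, with the distance to the gene's end where over 1 kb), with exact 95% Poisson intervals; diamonds give the same pileup scaled to the LV-HOXA5-NC total and the dashed line the lowest pileup in the control list, 4. Most diamonds lie left of the line, and those of the first PCNA peak and of ORC6 lie right of it.

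The peaks at the ends of the 12 genes lay at starts of transcription. Starts were known for 44 of the 50 members and 15799 other genes. A peak lay within 1 kb of a start at 13 of 44 members (29.5%, 16.8 to 45.2%), which include ORC1, and at 14.1% of the other genes. All 12 members with a peak near an end had a known start and a peak within 1 kb of it (100%, 73.5 to 100%). Among the 2194 other genes with a peak near an end and a known start, 92.9% (91.8 to 94.0%) had one there. In this the members did not differ beyond counting error. The peak covered a start in 10 of the 12. The summit lay before the start in 7 and past it in 5, at a median distance of 206 bp and at most 469 bp.

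**Figure D4:**
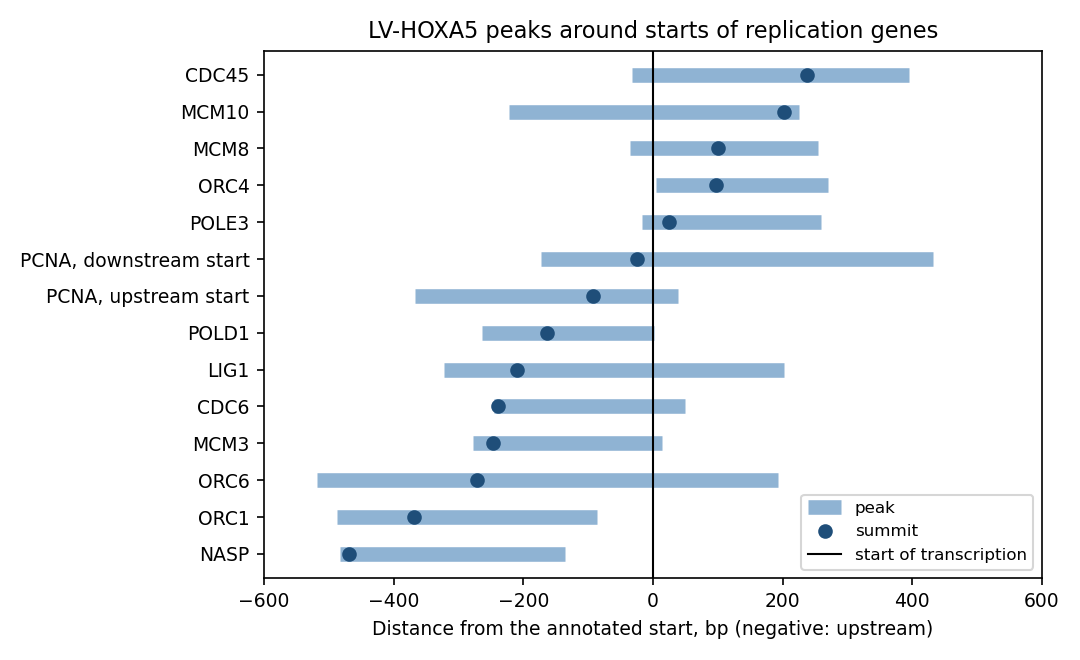
Extent of the LV-HOXA5 peaks at replication genes relative to a start of transcription (horizontal axis, base pairs from the start, negative upstream), 1 peak per line, with the summit as a point. PCNA appears at each of its starts. Most peaks span the start, those of NASP and ORC1 lie wholly upstream and that of ORC4 wholly downstream, and the summits lie within 469 bp.

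The first promoter window of each gene, 250 bases before and 50 after the start, was searched on both strands for short strings. A peak was counted at any start of the gene, so a string in this window need not lie under the peak. Of the 44 members, 21 held an E2F string (47.7%), against 4.44% of all 15843 protein-coding promoters, and sites of this kind are well known from promoters of replication genes. The string stood in 5 of the 13 members with a peak at a start (38.5%) and in 16 of the 31 without (51.6%), and over all promoters in 6.34% of those with a peak and 4.13% of those without. CCAAT stood in 8 of 13 (61.5%) and 18 of 31 (58.1%), against 36.4% of all promoters. Over all protein-coding promoters CCAAT stood in 51.2% of the 2240 with a peak and in 34.0% of the 13603 without. This was not particular to CCAAT, since the strings GGGCGG and CCGGAAG, counted further below, were also more frequent with a peak. These are descriptions of letters and do not show which protein bound.

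TAAT, the homeodomain core, stood in 14 of the 44 members (31.8%) and in 42.3% of all promoters. It was found in 6 of the 13 members with a peak (46.2%) and in 8 of the 31 without (25.8%), and over all promoters in 40.1% of those with a peak and 42.7% of those without. Among these 6 members, TAAT lay under the peak only at PCNA and MCM3. At CDC45, NASP, ORC4 and POLE3 it lay outside the peak, so the 46.2% does not describe strings under peaks. The longer palindrome TAATTA was in none of the 44 members and in 3.36% of all promoters. How often so short a string is found depends on base composition. The median share of G and C in the window was 64.8% in the members, 59.7% with a peak and 66.0% without, against 62.7% over all promoters. The part of base composition in the TAAT shares was not tested.

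A second list of 38 genes that act beside the fork, in origin firing, nucleotide supply, clamp and lagging strand work and chromatin assembly, was examined in the same way. A peak lay within 1 kb of an end at 11 of 38 (28.9%, 15.4 to 45.9%), beside 12.9% of the other protein-coding genes, with a median fold of 4.53 and a range of 3.62 to 5.70. Firing and helicase activation had 4 of 10 genes (12.2 to 73.8%), among them TICRR (treslin, pileup 19, 5.38-fold), WDHD1 (a polymerase alpha adaptor, 15, 4.53-fold) and DBF4 (the activator of the CDC7 kinase, 14, 4.48-fold). Nucleotide supply had 3 of 10 (6.67 to 65.2%), among them the ribonucleotide reductase subunit RRM2B (23, 4.97-fold) and thymidine kinase TK1 (26, 4.84-fold). Clamp loading and the lagging strand had 3 of 11 (6.02 to 61.0%), among them the exonuclease EXO1 (15, 5.70-fold) and topoisomerase TOP1 (14, 4.17-fold). Chromatin assembly had 1 of 7 (0.361 to 57.9%), the histone chaperone ASF1B (17, 4.61-fold). Each of these 4 intervals holds the background of 12.9%. In every one of these the pileup was below that of the first PCNA peak, and E2F strings were fewer in this list, in 3 of 30 promoters (10.0%).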

How the data were processed

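Paired-end reads came from anti-Flag CUT & Tag, 1 library each for LV-HOXA5 and LV-HOXA5-NC. The submitters' processing notes name fastp, Bowtie2, deepTools, MACS2, ChIPseeker and GRCh38, without versions. Per the file headers, the authors ran MACS 2.2.7.1 on the libraries separately, without a control, after dropping duplicates, with 2.70e+09 as the effective genome size and 0.05 as the q-value limit. The deposited peak tables give pileup (a signal in fragments), fold enrichment (a ratio to the local background) and p-values and q-values as -log10; both deposited forms of each list held the same intervals and folds.

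Peaks were compared with gene bodies of the 20037 nuclear protein-coding genes of RefSeq GRCh38.p14, and starts and sequences came from RefSeq promoter windows, which matched 44 of 50 members (MCM4, MCM5, GINS4, POLD3, RPA2 and RPA3 were not matched). Where a gene had several windows, the one farthest 5′ was searched for strings. The members and lists were chosen with earlier results of these data known. Values are given for members with a peak, for PCNA, NASP and MCM6, and for the 8 further genes of highest fold. No gene set was tested. Overlap meant at least 1 shared base, and a count of 0 was given the limit of 3 counts. The assignment of peaks was tested on simulated peaks. Python 3.11.15, NumPy 2.4.6, SciPy 1.17.1, pandas 2.3.3 and Matplotlib 3.10.9 were used.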

Additional observations from a re-analysis of the deposited data

How the results depend on the processing

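No paired analysis was possible because each condition had 1 library, and for the same reason no library could be left out. Under the alternatives, 39 values stayed within the interval of the reported value, or at 0 where no interval was given, and 10 did not. The 39 include values that could not move. Control and overlap counts of 0 stay 0 under stricter limits. Leaving out peaks that overlap a control peak cannot change a member value, because no member peak overlapped one. With peaks at or above the median fold of the list, the share of members fell to 10.0% within 1 kb of an end and 12.0% within 3 kb or inside. That of the other genes fell to 6.94% within 1 kb and 11.2% within 3 kb or inside. Within 1 kb of a start the share of members fell to 11.4% (3.79 to 24.6%). The share of the other genes at starts was not computed under this setting, so no comparison can be drawn there. With a q-value of 0.001 or less, the other genes had 11.2% within 1 kb and 17.9% within 3 kb or inside, beside 22.0% and 24.0% of the members. Over genes with no other protein-coding end within 1 kb, the other genes had 10.0% and 18.3%, beside 14.8% and 22.2% of the members. A limit of 2 kb gave 14.1% of the other genes and 24.0% of the members. Within 1 kb of an end and within 3 kb or inside, the share of members was above that of the other genes under each of these settings, but within 1 kb the members' interval held the share of the other genes for peaks of at least the median fold, for genes without such a neighbour and at the 2 kb limit. Each stricter setting counts fewer peaks or genes by construction. The control list is limited by its 1948734 fragments.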

Other observations

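Other short strings in the promoter windows were counted as well. The E-box CACGTG, bound by MYC and MXD proteins, stood in 7 of the 44 members (15.9%) and in 8.82% of all protein-coding promoters, and in 1 of the 13 members with a peak against 6 of the 31 without, while over all promoters it stood in 10.5% of those with a peak and 8.55% of those without. GGGCGG, the core of SP1 sites, stood in 34 members (77.3%) against 58.3% of all promoters. It was found in 9 of the 13 members with a peak and 25 of the 31 without. Over all promoters it stood in 71.8% of those with a peak and 56.1% of those without. The ETS string CCGGAAG stood in 6 members (13.6%) against 14.2% of all promoters. It was found in 2 of the 13 members with a peak and 4 of the 31 without. Over all promoters it stood in 20.3% of those with a peak and 13.1% of those without. TTTGAA, part of the cell cycle element of genes expressed late in the cycle, stood in no member and in 12.2% of all promoters. These counts are descriptions, and a string that is missing from a window of 300 bases says nothing about binding elsewhere.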
